A study of Mus musculus with 64 samples.

Results

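The genes described here encode the plasma membrane transporters of glycine (*Slc6a5* and *Slc6a9*), the alpha and beta subunits of the glycine receptor (*Glra1*, *Glra2*, *Glra3* and *Glrb*) and gephyrin (*Gphn*), the scaffold that holds these receptors at synapses. They were selected by gene symbol, with the high *Slc6a5* and *Glra1* levels of older knock-in mice already known, and all 7 were among the 18432 genes measured. *Glra4*, a further alpha subunit gene, was not analysed here.

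Glycine acts as an inhibitory transmitter, chiefly in the spinal cord and brainstem, and also as a co-agonist of the NMDA receptor. The product of *Slc6a5* returns glycine to the nerve endings that release it and is a customary marker of glycinergic neurons, whereas the product of *Slc6a9* clears glycine mainly into astrocytes. Glycine receptors are chloride channels in which alpha subunits bind glycine and the beta subunit ties the channel to gephyrin, and *Glra2* is the alpha subunit typical of the immature brain.

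RNA was measured in frontal cortex and hippocampus of heterozygous knock-in mice that carry the *Cyfip2* R87C allele (Cyfip2 +/R87C, KI) and of wild-type (WT) littermates, all C57BL/6N, at postnatal week (PWK) 1, 7, 14 and 28. The allele is present in every cell, and the mice were studied as a model of West syndrome, with spasms in the newborn and recurrent seizures in the adult. Each of the 16 groups of genotype, region and age held 4 libraries, one per mouse, which made 64. Mice are referred to by the replicate number of their label, and the labels do not say whether cortex and hippocampus libraries of one number came from the same mouse. The values are Salmon estimates of reads per gene scaled by DESeq2, called normalized values below, and their sum per library lay between 29.2 and 32.6 M. The labelled regions were checked in WT mice by *Prox1*, a granule cell gene of the dentate gyrus, which lay between 3808 and 5545 in hippocampus and between 423 and 679 in cortex.

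*Slc6a5* (ENSMUSG00000039728, GRCm38 chromosome 7, 49910146 to 49963856, plus strand) was at most 30.5 in all WT libraries and in KI libraries up to PWK 7, and was above WT in older KI mice, by far the most in hippocampus and in cortex at PWK 28 and only slightly in cortex at PWK 14. Over the 32 WT libraries its normalized value had a median of 3.93, with 0 as the lowest and 9.90 as the highest. In KI mice at PWK 1 and PWK 7 the 16 libraries ranged from 1.70 to 30.5, with a median of 4.83. None of these KI groups stood apart from its WT counterpart.

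In KI hippocampus at PWK 14, the *Slc6a5* values of the 4 mice were 3101, 879, 908 and 1474, and WT littermates had 0.98, 4.24, 0 and 3.15. At PWK 28 the KI mice had 1256, 1201, 744 and 906, and the WT mice 4.22, 5.38, 2.14 and 5.08. The groups did not overlap at either age, and the lowest KI mouse stood far above the highest WT mouse. The log2 fold change, taken on log2(value + 1), was 9.08 (SE 0.56) at PWK 14 and 7.64 (SE 0.25) at PWK 28. These contrasts are the ones in which the gene was known to be high, so they are given as a description and without a test. In bulk tissue, more cells of a type cannot be told apart from more RNA per cell.

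In KI cortex, *Slc6a5* was lower and varied more from mouse to mouse. At PWK 14 the KI values were 16.3, 14.0, 42.3 and 16.2 against 4.38, 6.40, 6.19 and 0 in WT. At PWK 28 they were 756, 51.3, 828 and 146 against 1.92, 3.01, 2.88 and 0.961. The groups again did not overlap, but the KI mice at PWK 28 spanned a 16.1-fold range, with mice 1 and 3 high and mice 2 and 4 low. The log2 fold changes were 2.35 (SE 0.63) and 6.42 (SE 0.77).

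*Glra1* (ENSMUSG00000000263, chromosome 11, 55514238 to 55608198, minus strand), the alpha subunit of mature spinal glycine receptors, behaved much like *Slc6a5*. In WT hippocampus it was at background at every age, with a median of 1.34 and a highest value of 5.27 over 16 libraries. In KI hippocampus the mice had 235, 168, 194 and 126 at PWK 14 and 116, 87.8, 67.0 and 88.6 at PWK 28. WT mice of these ages had 1.05, 0.91, 3.71 and 1.12, and 0, 2.88, 2.10 and 2.31. All KI mice lay well above all WT mice, with log2 fold changes of 6.15 (SE 0.35) and 5.15 (SE 0.42).

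In cortex, unlike hippocampus, *Glra1* had a low but measurable level in WT mice. At PWK 14 the KI mice had 181, 76.2, 17.9 and 19.4 and the WT mice 6.25, 16.2, 12.1 and 9.35. At PWK 28 the KI mice had 550.1, 96.9, 409 and 299 and the WT mice 16.3, 14.2, 9.35 and 14.7. Mice 3 and 4 at PWK 14 only just cleared the highest WT mouse, whereas all KI mice at PWK 28 were well above it. The log2 fold changes were 2.08 (SE 0.65) and 4.31 (SE 0.45).

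**Figure D1:**
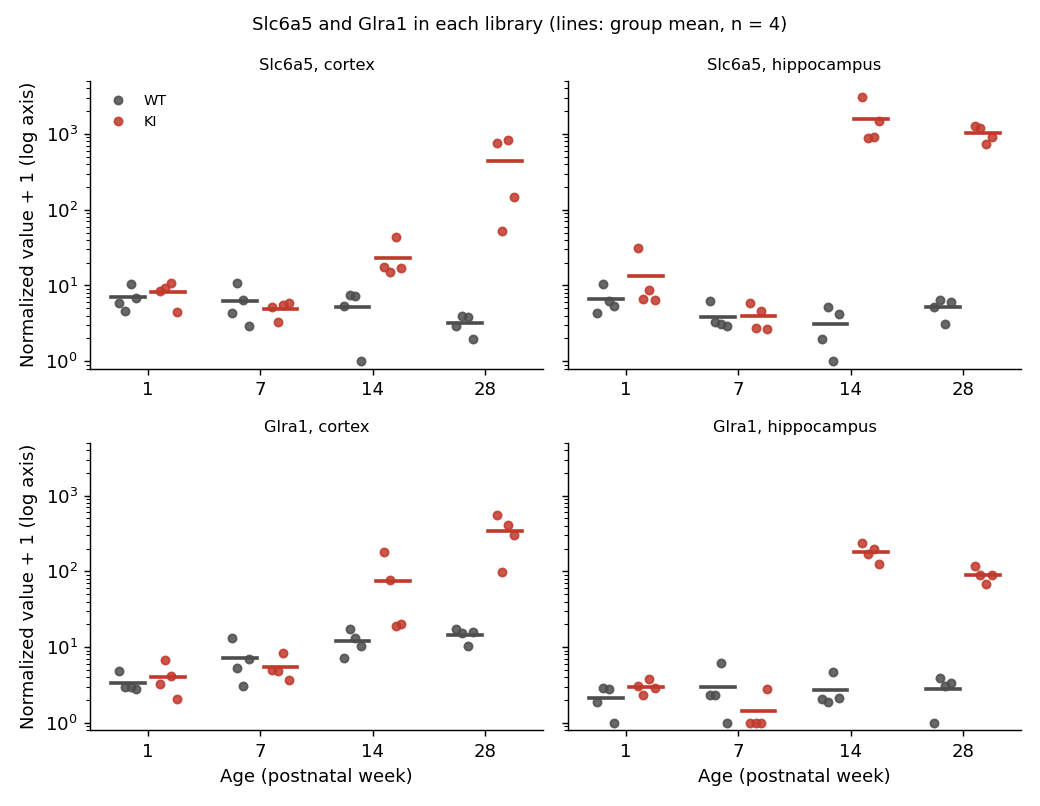
Normalized value + 1 (log axis) of *Slc6a5* and *Glra1* against age in postnatal weeks, in cortex and hippocampus. Each point is a library (grey WT, red KI) and each line a group mean of 4. KI libraries separate from WT libraries at PWK 14 and PWK 28, with *Slc6a5* reaching 3101 in hippocampus and *Glra1* 550.1 in cortex.

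Ordered by mean, the 4 groups with the most *Slc6a5* were KI hippocampus at PWK 14 (1591 ± 1044, SD, n = 4), KI hippocampus at PWK 28 (1027 ± 243), KI cortex at PWK 28 (445 ± 403) and KI cortex at PWK 14 (22.2 ± 13.5). Neighbours among the first 3 overlapped in range, and so did the fourth and the fifth, KI hippocampus at PWK 1, through a single mouse at 30.5. For *Glra1* the order differed: KI cortex at PWK 28 came first (339 ± 191), before KI hippocampus at PWK 14 (181 ± 45.8), KI hippocampus at PWK 28 (89.9 ± 20.1) and KI cortex at PWK 14 (73.7 ± 76.6). Here the first overlapped the second and the third the fourth, and the fourth did not overlap WT cortex at PWK 28 (13.7 ± 3.00). *Slc6a5* thus had its highest group in hippocampus and *Glra1* in cortex, a difference that was not tested.

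Within the late KI groups the mice highest in one gene were only partly those highest in the other. In cortex at PWK 28, mice 1 and 3 led for both genes and mouse 2 was lowest for both. In cortex at PWK 14, mouse 1 had the most *Glra1* (181) but an ordinary *Slc6a5* value (16.3), while mouse 3 had the most *Slc6a5* (42.3) and the least *Glra1* (17.9). In hippocampus mouse 1 led for both genes at both ages.

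Genes induced by neuronal firing moved with these levels in some groups. The summed value of a list of 10 such genes (among them *Fos*, *Arc*, *Bdnf*, *Npy* and *Nptx2*) in KI cortex at PWK 28 was 65124, 15185, 45783 and 17189 for mice 1 to 4, so that the 2 mice with the most *Slc6a5* had the 2 highest sums, while the WT sums lay between 22645 and 25900.1. In KI cortex at PWK 14 mouse 1 had a sum of 47154 and the others between 11248 and 14591, within or near the WT range of 10225 to 15432. In KI hippocampus at PWK 14 the sums of mice 1 to 4 were 44897, 20101, 46093 and 20168 against 6196 to 10609 in WT, and at PWK 28 they were 33313, 13358, 24101 and 11423 against 11103 to 13570.4. Here the orders differed: mouse 3 had the highest sum at PWK 14 but the third *Slc6a5* value (908), and at PWK 28 it had the second sum and the lowest *Slc6a5* value (744). Of the 10 genes, limma called 3 higher in KI cortex at PWK 14 and 3 at PWK 28, and 5 and 4 in KI hippocampus, and none lower, where 5.18%, 22.2%, 15.6% and 15.8% of all genes were called in either direction. The 3 of 10 in cortex at PWK 28 were near that share. Their part in the *Slc6a5* and *Glra1* levels was not tested.

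Because *Slc6a5* marks neurons of the hindbrain and spinal cord, other genes of those regions were looked at in the same libraries. Of the list, *Tph2* and *Chat* had values, and its 16 Hox genes were not analysed here. The summed value of *Tph2* and *Chat* was between 21.4 and 137 in all 64 libraries, the highest being mouse 1 of KI hippocampus at PWK 14, which also had the most *Slc6a5* (3101). With that mouse left out the *Slc6a5* log2 fold change was 8.62, and the other KI mice of the group had sums between 43.6 and 49.8 against 22.1 to 35.6 in WT. *Tph2*, which makes serotonin, was called higher in KI cortex at PWK 28 (32.4 ± 5.61 against 12.7 ± 6.54, SD, n = 4, adjusted p = 0.0174 in limma's test) and *Chat* was not called. At PWK 14 *Tph2* lay between 26.2 and 48.1 in KI cortex against 13.7 to 23.4 in WT. In hippocampus of that age it lay between 42.8 and 136 against 14.0 to 34.5. Of all genes, 14.2% (cortex) and 23.8% (hippocampus) likewise did not overlap there. In hippocampus at PWK 28 the *Tph2* values of the genotypes overlapped. The part of these genes in the *Slc6a5* level was not tested.

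The stretch before the first annotated base of *Slc6a5* is shown because it was the only upstream window of the 7 genes that held either of 2 motifs of activity-regulated factors that were searched on both strands. These were AP-1 (TGANTCA) and the cAMP response element (TGACGTCA), which cannot match the same letters. RefSeq gave windows of 250 bases before the start of transcription for 6 of the genes, none for *Glra1*. The window of *Slc6a5* at chr7:49910049-49910298 held one AP-1 match, in capitals below, 191 bases before the start that RefSeq gives, and the part before the first exon of the annotation is printed.

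*Slc6a5*, GRCm38.p6, chr7:49910049-49910145, plus strand: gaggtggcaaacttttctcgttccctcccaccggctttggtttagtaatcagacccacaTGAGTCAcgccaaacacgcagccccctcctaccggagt

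*Glra2*, GRCm38.p6, chrX:165327394-165327643, minus strand: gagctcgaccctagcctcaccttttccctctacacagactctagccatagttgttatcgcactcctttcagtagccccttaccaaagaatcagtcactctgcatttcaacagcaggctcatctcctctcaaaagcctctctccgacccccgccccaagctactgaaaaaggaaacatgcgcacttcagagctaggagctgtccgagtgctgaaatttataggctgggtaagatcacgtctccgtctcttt

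*Glra2*, the alpha subunit gene that was lower in late KI cortex, is shown as an example of a window without a match. The other windows of these genes had none either, so its lack of a match does not set *Glra2* apart from them. In late hippocampus the *Glra2* values of the genotypes overlapped. The AP-1 letters occurred in 6.75% of 32851 windows of the same length and the cAMP response element in 1.55%. A match is a description of these letters only. The GC content of the *Slc6a5* window with the match and of the *Glra2* window was 50.4% each, against a median of 52.4% over all windows. Another *Slc6a5* window, at chr7:49911450-49911699, had a GC content of 43.6% and no match.

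*Glra2* (ENSMUSG00000018589, chromosome X, 165129017 to 165327393, minus strand) was the alpha subunit of the first postnatal week. In WT cortex it was 1900.2, 1608, 1604 and 1742 at PWK 1 and 360.2, 408, 409 and 405 at PWK 7. In WT hippocampus it was 1196, 1147, 1093 and 1301 at PWK 1 and 213, 253, 261 and 241 at PWK 7. The ages did not overlap in either region. *Glra2* fell by 2.11 (SE 0.07) on the log2 scale in cortex (adjusted p = 3.67e-10, limma) and by 2.29 (SE 0.08) in hippocampus (adjusted p = 1.72e-09, limma). The 3 genes whose pattern over the 64 libraries was most like it were *Jpt1*, *Marcks* and the immature neuron gene *Dcx*, with Pearson's r between 0.972 and 0.976. These libraries share ages and groups, so r is a description.

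*Glra2* was also the alpha subunit that was lower in late KI cortex. At PWK 14 the KI mice had 217, 229, 256 and 159 and the WT mice 416, 346, 350.1 and 364. At PWK 28 they had 153, 252, 192 and 203 against 245, 289, 411 and 363. The groups were apart at PWK 14 and overlapped at PWK 28 through KI mouse 2 and WT mouse 1. The log2 fold changes were -0.79 (SE 0.14) and -0.70 (SE 0.19), and in hippocampus they were -0.14 (SE 0.17) and -0.18 (SE 0.14), with overlapping groups at both ages.

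*Glra3* (ENSMUSG00000038257, chromosome 8, 55940460 to 56130070, plus strand), the third alpha subunit, differed more between regions than between genotypes. In WT mice it lay between 221 and 453 in cortex and between 78.3 and 185 in hippocampus over all ages. It was lower in hippocampus at each age, by between 1.10 (SE 0.14, PWK 28) and 1.75 (SE 0.17, PWK 7) on the log2 scale (the largest adjusted p was 9.05e-05, limma). In WT cortex it rose by 0.53 (SE 0.12) from PWK 1 to PWK 7 (adjusted p = 0.00188, limma). In late KI groups its log2 fold change was between -0.12 and 0.41 and the genotypes overlapped throughout.

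Set against each other per kilobase of exon, the alpha subunits shifted in share with age. They changed places in late KI mice only, though not in all of them. In every WT group the order was *Glra2*, *Glra3* and *Glra1*. In WT cortex *Glra2* made up 94.9% of alpha subunit RNA at PWK 1 and 74.1% at PWK 7, while *Glra3* went from 4.97% to 24.3% and *Glra1* from 0.171% to 1.53%. In WT hippocampus *Glra2* went from 97.1% to 85.4% and *Glra3* from 2.78% to 13.7%. In exact two-sided permutation tests of 4 against 4 libraries the *Glra2* and *Glra3* shares changed in both regions and the *Glra1* share in cortex, each at p = 0.0286, the smallest that this design allows, and 0.0343 after adjustment over the 6 tests. The *Glra1* share in hippocampus was 0.129% at PWK 1 and 0.860% at PWK 7 (exact p = 0.143, adjusted p = 0.143). The shares of a library add up to a whole, so the tests of a region are not independent. From PWK 1 to PWK 7 the alpha subunit sum per kilobase fell from 573 ± 47.1 to 169 ± 2.58 in WT cortex (SD, n = 4). In WT hippocampus it fell from 387 ± 28.5 to 90.0 ± 8.77. By level, *Glra1* was not called in either region and *Glra3* not in hippocampus, so a larger share need not mean a higher level.

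*Glra1* took a larger mean share of alpha subunit RNA per kilobase in older KI mice than in WT mice. The share in KI cortex was 20.1% ± 17.3 (SD, n = 4) at PWK 14 and 54.7% ± 22.3 at PWK 28, against 2.89% ± 1.09 and 4.00% ± 1.34 in WT. In KI hippocampus it was 44.6% ± 9.12 at PWK 14 and 30.4% ± 4.43 at PWK 28, against 0.741% ± 0.617 and 0.903% ± 0.621 in WT. The lowest and highest cortical KI mice had 5.47% and 43.2% at PWK 14, and 24.3% and 76.2% at PWK 28. The hippocampal KI mice of PWK 28 lay within 26.6% to 36.7%. *Glra2* in turn made up 51.2% ± 8.51 of alpha subunit RNA in KI cortex at PWK 14 and between 16.2% and 48.3% at PWK 28, and 46.1% ± 9.84 (PWK 14) and 50.4% ± 4.59 (PWK 28) in KI hippocampus. *Glra1* exceeded *Glra2* in mouse 1 of cortex at PWK 14, in mice 1, 3 and 4 of cortex at PWK 28 and in mice 1 and 3 of hippocampus at PWK 14, and lay below it in all 4 mice of hippocampus at PWK 28. *Glra1* exceeded *Glra3* in all 4 mice of late KI hippocampus at each age. In cortex it did so in mice 1 and 2 at PWK 14 and in mice 1, 3 and 4 at PWK 28. The late KI shares contain the *Glra1* levels already known and carry no test.

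**Figure D2:**
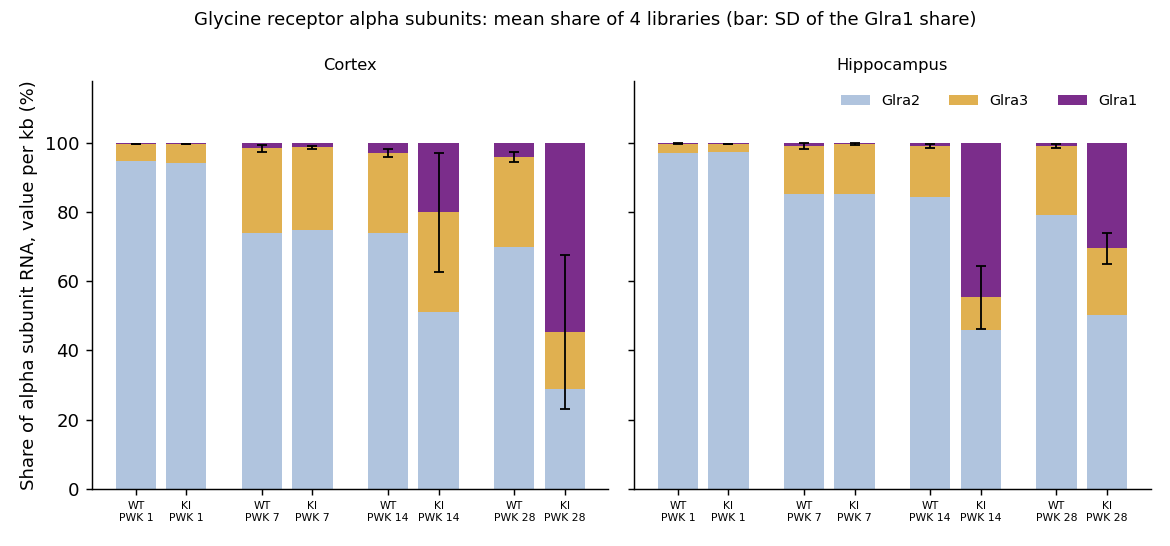
Mean share (%) of *Glra2*, *Glra3* and *Glra1* in alpha subunit RNA per kilobase, for WT and KI at each age, in cortex and hippocampus (4 libraries per bar). The vertical lines are the SD of the *Glra1* share, which is at most 4.00% on average in WT and 54.7% in KI cortex at PWK 28.

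*Glrb* (ENSMUSG00000028020, chromosome 3, 80843599 to 80913660, minus strand), the beta subunit, was the most abundant of the 7 genes per kilobase in every group. In WT cortex it rose from 4758, 4754, 5399.8 and 5119.9 at PWK 1 to 7073, 6329, 6876 and 6749.7 at PWK 7, by 0.43 (SE 0.05) on the log2 scale (adjusted p = 1.51e-05, limma). In WT hippocampus it rose from 4129, 4118, 4287 and 4230.4 to 4715, 4731, 5216 and 4773, by 0.21 (SE 0.04; adjusted p = 0.000929, limma). The rise was smaller in hippocampus by 0.22 (SE 0.07; adjusted p = 0.0253 for the interaction, limma), and *Glrb* was the only one of the 7 genes with such a difference, where 21.3% of all genes had one. That call was lost when any of 4 libraries was left out (mouse 2 of cortex and mouse 3 of hippocampus at PWK 1, and mouse 1 of each region at PWK 7), with differences between -0.21 and -0.20.

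*Glrb* was above WT in each mouse of KI cortex at PWK 28, where KI mice had 7904, 8161, 7891 and 7402 and WT mice 6774, 7026, 6909 and 7262. KI hippocampus at PWK 28 had 5134, 5102, 5249 and 5162 against 4817, 5029, 4597 and 4891. The groups did not overlap in either region but differed by little, with log2 fold changes of 0.16 (SE 0.05) and 0.10 (SE 0.04). At PWK 14 the genotypes overlapped in both regions.

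Per kilobase, *Glrb* exceeded the sum of the 3 alpha subunits by 1.89-fold in WT cortex and 2.33-fold in WT hippocampus at PWK 1, and by 8.57-fold and 11.6-fold at PWK 7. In the late groups this ratio was lower in KI than in WT where *Glra1* was high: 7.41 ± 2.19 (SD, n = 4) against 10.4 ± 1.47 in cortex at PWK 28 and 6.49 ± 0.581 against 10.8 ± 1.63 in hippocampus at PWK 14. In hippocampus at PWK 28 it was 9.31 ± 1.99 against 12.0 ± 1.08, and in cortex at PWK 14 it was 11.5 ± 2.21 against 9.18 ± 0.344. These ratios carry no test.

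*Gphn* (ENSMUSG00000047454, chromosome 12, 78226379 to 78684772, plus strand), which also anchors GABA-A receptors, fell between PWK 1 and PWK 7 in WT mice. In cortex it went from 2508, 2403, 2529.7 and 2642 to 1987, 1924, 1857 and 2139.7, a fall by 0.35 (SE 0.05) on the log2 scale (adjusted p = 8.91e-05, limma). In hippocampus it fell by 0.27 (SE 0.05, adjusted p = 0.000526, limma). In KI cortex at PWK 28 the mice had 2359, 2346, 2413 and 2144 against 1891, 1701, 1798 and 2012 in WT, with no overlap and a log2 fold change of 0.32 (SE 0.07). In the other late comparisons the genotypes overlapped, with log2 fold changes of 0.19 (SE 0.09) in cortex at PWK 14 and 0.11 (SE 0.11) and 0.02 (SE 0.06) in hippocampus.

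*Slc6a9* (ENSMUSG00000028542, chromosome 4, 117834506 to 117875198, plus strand), the astrocytic transporter, rose in WT mice between PWK 1 and PWK 7, from a mean of 959 to 1245 in cortex (0.37 on the log2 scale, SE 0.08, adjusted p = 0.00172, limma) and from 849 to 1286 in hippocampus (0.60, SE 0.07, adjusted p = 2.3e-05, limma). In late KI groups it overlapped WT throughout, with log2 fold changes between 0.09 and 0.30. The highest single value, 1978, was that of mouse 1 of KI hippocampus at PWK 14, the mouse with the most *Slc6a5*. Per kilobase, *Slc6a5* made up at most 0.842% of the RNA of the 2 transporters in any WT mouse. Its share was 40.4% ± 9.53 (SD, n = 4) in KI hippocampus at PWK 14, 33.8% ± 6.81 at PWK 28 and 16.7% ± 13.2 in KI cortex at PWK 28.

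**Figure D3:**
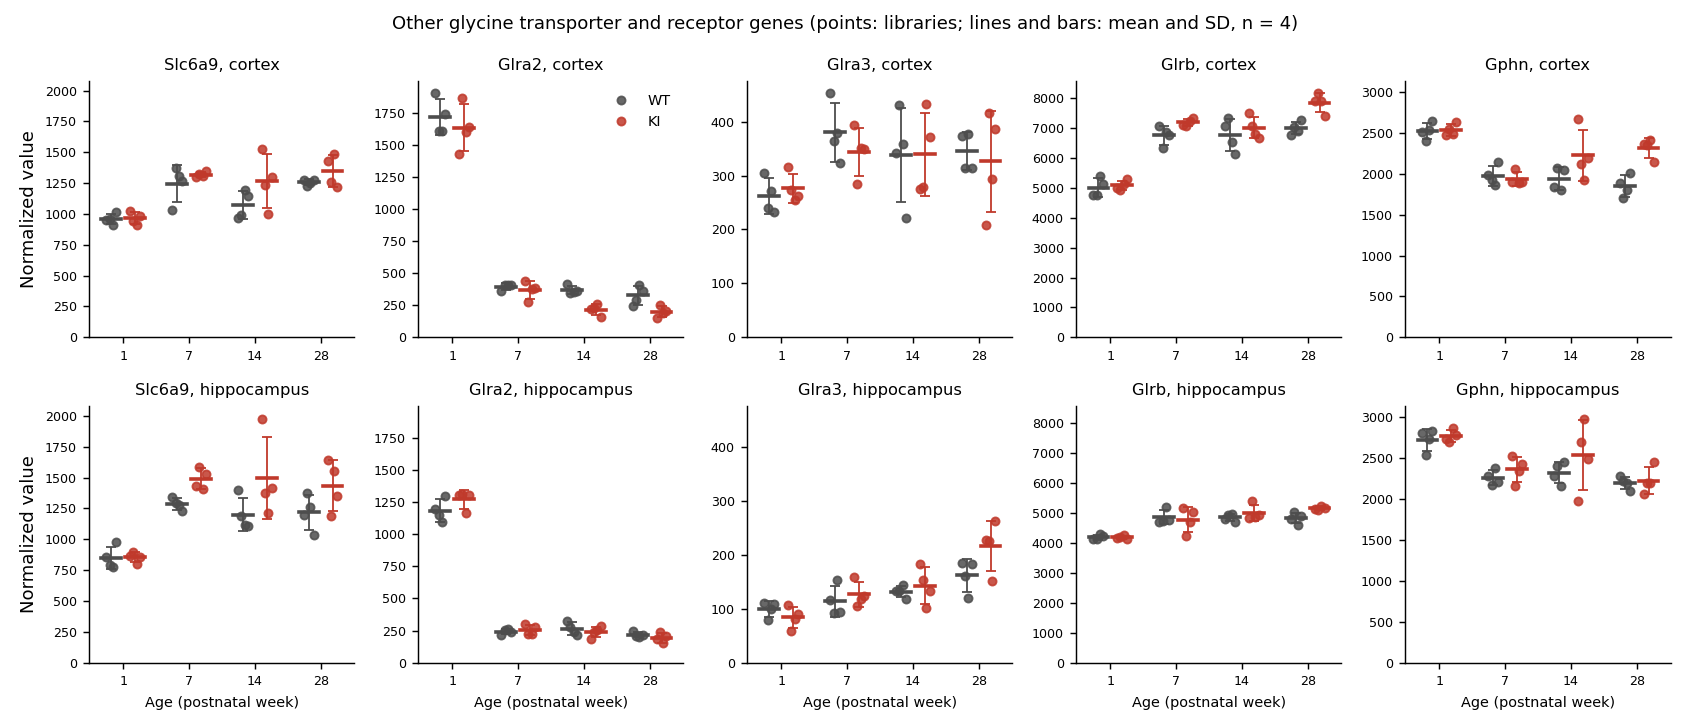
Normalized value of *Slc6a9*, *Glra2*, *Glra3*, *Glrb* and *Gphn* against age in postnatal weeks, in cortex (top) and hippocampus (bottom). Points are libraries (grey WT, red KI), lines and bars the mean and SD of 4. The fall of *Glra2* after PWK 1 is the steepest change, from a mean of 1714 to 396 in WT cortex. On the log2 scale, late KI values differ less from WT than those of *Slc6a5* and *Glra1*. *Glra2* is lower in late KI cortex, with means of 215 against 369 at PWK 14.

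Before the late ages the genotypes did not differ in a way that passed the test. At PWK 1, 0 of the 7 genes were called in either region (limma, Benjamini-Hochberg adjusted p under 0.05 over all genes), and 0 had an unadjusted p under 0.05, where 0.00546% of all genes were called in cortex and 0.0109% in hippocampus. At PWK 7 again 0 of 7 were called in each region, against 0.00545% and 0.0218% of all genes, and 1 gene in each had an unadjusted p under 0.05. These were *Glrb* in cortex (7184 ± 128 in KI and 6757 ± 315 in WT, SD, n = 4, adjusted p = 0.603, limma) and *Slc6a9* in hippocampus (1489 ± 86.0 and 1286 ± 47.6, adjusted p = 0.602, limma). All 4 KI mice had more *Slc6a9* than all 4 WT mice in hippocampus at PWK 7.

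At PWK 14, 1 of the 7 genes was called in cortex and 2 in hippocampus, where 5.18% and 15.6% of all genes were called. At PWK 28, 5 were called in cortex and 2 in hippocampus, against 22.2% and 15.8% of all genes. These counts include the contrasts through which the genes were chosen, and nothing is read from them. The count in cortex at PWK 14 was 2 without KI mouse 3, and that at PWK 28 was 3 without KI mouse 1, KI mouse 3, WT mouse 3 or WT mouse 4. The 4 KI libraries were clear of the 4 WT libraries for 3 (PWK 14) and 4 (PWK 28) of the genes in cortex and for 2 and 3 of them in hippocampus, where 14.2%, 25.8%, 23.8% and 21.5% of all genes did not overlap.

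**Figure D4:**
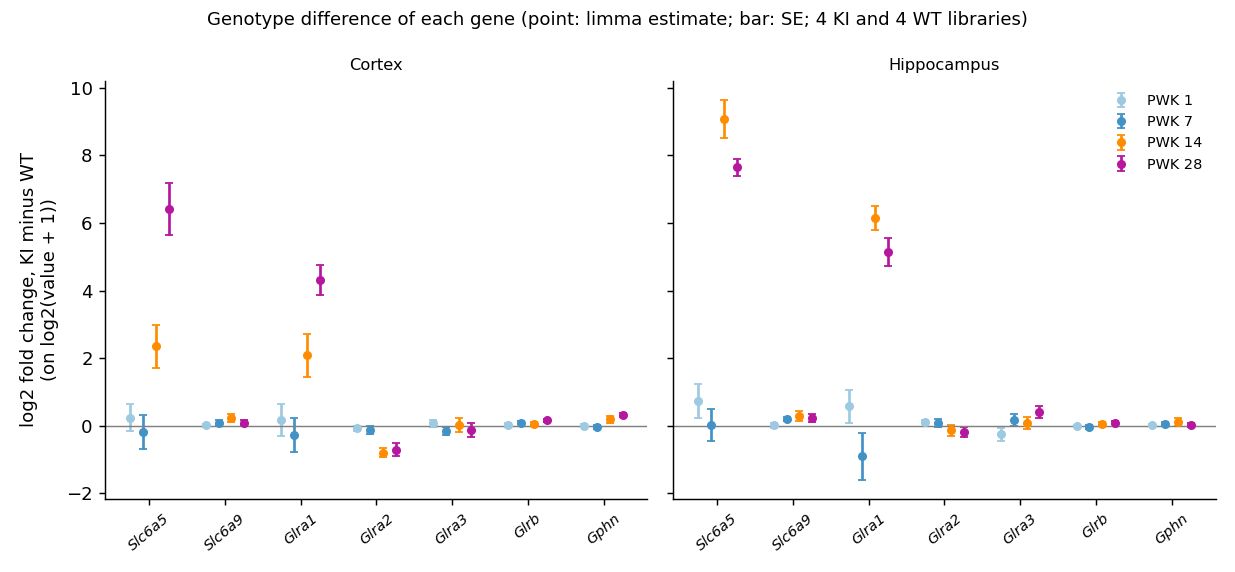
log2 fold change (KI minus WT, on log2(value + 1)) of each of the 7 genes in cortex and hippocampus, coloured by age. Points are limma estimates and bars their SE, from 4 KI and 4 WT libraries. *Slc6a5* and *Glra1* reach 9.08 and 6.15 in hippocampus at PWK 14, while the other genes stay between -0.79 and 0.41.

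In WT mice the first weeks moved most of these genes. Between PWK 1 and PWK 7, 5 of 7 were called in cortex and 4 in hippocampus, where 65.3% and 61.3% of all genes were called, so the share was near that of the whole table. *Slc6a5* and *Glra1* were not called in either region, nor *Glra3* in hippocampus. Between PWK 7 and PWK 28, 0 of 7 were called in either region by limma, against 22.2% and 14.7% of all genes, with 2 genes at an unadjusted p under 0.05 in cortex and 1 in hippocampus. The nearest was *Glra1* in WT cortex, at 12.4, 4.37, 2.11 and 6.04 at PWK 7 and 16.3, 14.2, 9.35 and 14.7 at PWK 28 (1.19 on the log2 scale, SE 0.44, adjusted p = 0.0724, limma). It was called when mouse 1 of PWK 7 was left out, at 1.56, as was *Glra2* in cortex without mouse 3 of PWK 28, at -0.42, and *Glra3* in hippocampus without mouse 3 of either age, at 0.65 and 0.67.

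Between the regions of WT mice, limma called 3 (PWK 1), 4 (PWK 7), 5 (PWK 14) and 5 (PWK 28) of the 7 genes, where 34.7%, 40.8%, 34.6% and 37.8% of all genes were called. *Glra2*, *Glra3* and *Glrb* were lower in hippocampus at every age. *Glrb* differed by -0.25 (SE 0.05) at PWK 1 and by -0.53 (SE 0.04) at PWK 28 on the log2 scale (the largest adjusted p over the 4 ages was 0.00151, limma). *Gphn* went the other way and was called higher in hippocampus from PWK 7 on without the block, by 0.20 (SE 0.05) to 0.26 (SE 0.06), with a largest adjusted p of 0.011 (limma). *Glra1* was lower in hippocampus at PWK 14, by 2.19 (SE 0.45) on the log2 scale (adjusted p = 0.00258, limma), and at PWK 28 (1.82 ± 1.26 against 13.7 ± 3.00, SD, n = 4, adjusted p = 0.00129, limma). *Slc6a5* was not called between regions at any age, nor was *Slc6a9* without the replicate block. At PWK 1, where same-numbered WT libraries of both regions deviated together, the fit with the replicate number as a block called 5 of the 7 genes, against 35.9% of all genes. It added *Slc6a9*, lower in hippocampus by 0.18 (SE 0.05) on the log2 scale (adjusted p = 0.035, against 0.0827 without the block, limma), and *Gphn*, higher by 0.11 (SE 0.04; adjusted p = 0.0452, against 0.0961, limma).

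Per kilobase, the order of the 7 genes in WT cortex at PWK 1 was *Glrb* (1076 ± 67.2, SD, n = 4), *Gphn* (672 ± 26.2), *Glra2* (544 ± 44.5), *Slc6a9* (187 ± 8.20), *Glra3* (28.5 ± 3.60), *Glra1* (0.993 ± 0.390) and *Slc6a5* (0.826 ± 0.345). Only the last 2 overlapped. In KI hippocampus at PWK 14 *Slc6a5* (221 per kb) overlapped *Slc6a9* (291 per kb) and *Glra1* (74.8 per kb) overlapped *Glra2* (76.0 per kb).

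The genes with the most similar pattern over the 64 libraries were, for *Slc6a5*, *Gldn* and *Rin3* (Pearson's r of 0.873 and 0.869), and for *Glra1*, *Npy*, *Ptgs1* and *Trnp1* (0.886 to 0.927). *Npy*, a neuropeptide gene, is itself on the activity list. For *Glra3* they were *Sesn3*, *Ipcef1* and *Elmo1*, for *Glrb* *Lpgat1*, *Pcsk2* and *Vxn*, for *Gphn* *Foxo6*, *Scarb1* and *Stk32b*, and for *Slc6a9* *Gsn*, *Itih3* and *Endod1*, with r between 0.84 and 0.968. Among the members, r was highest for *Glrb* with *Glra3* (0.834) and *Slc6a5* with *Glra1* (0.804). All these libraries share ages and groups, and *Slc6a5* and *Glra1* were high only in the late KI groups already known. The r of these genes, also that of *Glra1* with *Npy*, largely restates that difference and is a description.

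The wider glycine pathway was followed through 31 further genes, of which none passed the test between genotypes at PWK 1 or PWK 7 in limma. At PWK 14, KI cortex had 2 of them up and 2 down and KI hippocampus 6 up and 5 down. At PWK 28 the counts were 7 up and 5 down in KI cortex and 7 up and 1 down in KI hippocampus. Of all genes tested, 5.18% (cortex) and 15.6% (hippocampus) were called at PWK 14 and 22.2% and 15.8% at PWK 28. The median log2 fold change of the list was -0.02, 0.11, -0.01 and 0.08 in these comparisons (cortex at PWK 14 and 28, hippocampus at PWK 14 and 28), where the median of all genes tested was between -0.0034 and 0.0060.

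Of 5 other carriers of glycine, *Slc32a1*, which fills synaptic vesicles with glycine or GABA, was higher in KI cortex at PWK 14 (1902 ± 133 against 1483 ± 30.0, SD, n = 4, adjusted p = 0.0107, limma) and PWK 28 (adjusted p = 0.00297, limma) and in KI hippocampus at PWK 28 (1945 ± 138 against 1183 ± 64.4, adjusted p = 6.73e-05, limma). Markers of GABAergic neurons moved in the same libraries. Of 6 such genes, 3 were higher and 2 lower in KI cortex at PWK 14 and again at PWK 28, 1 was higher and 1 lower in KI hippocampus at PWK 14, and 2 were higher and 1 lower at PWK 28. Of all genes tested, limma called 5.18% and 22.2% in cortex at PWK 14 and 28, and 15.6% and 15.8% in hippocampus, in either direction. *Gad2*, which makes GABA, was 7908 ± 2210 against 4579 ± 259 in cortex at PWK 14 (SD, n = 4, adjusted p = 0.0177, limma), 12740 ± 3339 against 5626 ± 833 in cortex at PWK 28 (adjusted p = 0.00187, limma) and 6145 ± 511 against 4318 ± 305 in hippocampus at PWK 28 (adjusted p = 0.000839, limma). The summed value of the 6 genes lay between 25712 and 31795 in KI cortex at PWK 14 against 22271 to 24554 in WT, between 31005 and 43613 at PWK 28 against 26277 to 31498, and between 20786 and 23492 in KI hippocampus at PWK 28 against 17371 to 19256. Within these sums *Lamp5* went the other way, at 3308 ± 931 against 5379 ± 298 in cortex at PWK 14. It was 1638.5 ± 845 against 5506 ± 380 in cortex and 625 ± 75.3 against 951 ± 67.2 in hippocampus at PWK 28. *Vip* was 938 ± 93.7 against 1208 ± 116 in cortex at PWK 14 and 1135 ± 117 against 1796 ± 138 at PWK 28. The part of these 6 genes in the *Slc32a1* level was not tested.

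*Slc38a5*, a neutral amino acid carrier that takes glycine, was higher in KI hippocampus at PWK 14 (347 ± 156 against 79.4 ± 17.9, log2 fold change 2.03, SE 0.32, adjusted p = 0.00384, limma) and PWK 28 (173 ± 47.0 against 72.1 ± 10.2, 1.22, SE 0.19, adjusted p = 0.00162, limma). The carriers *Slc36a1* and *Slc7a10* were higher in KI hippocampus at PWK 14, and *Slc36a1* also at PWK 28. Of 10 genes of glycine synthesis and breakdown, *Gldc*, the glycine-decarboxylating part of the cleavage system, was lower in KI cortex at PWK 14 and 28 and in KI hippocampus at PWK 14, by 0.38 to 0.51 on the log2 scale, and *Shmt1* was higher in KI cortex at PWK 14 (61.4 ± 16.1 against 29.9 ± 6.44, adjusted p = 0.0382, limma).

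Of 7 genes of the inhibitory postsynapse, *Insyn1* and *Iqsec3*, both partners of gephyrin complexes, were higher in KI cortex at PWK 28 and in KI hippocampus at PWK 14 and 28, with *Insyn1* at 4403 ± 154 against 2934 ± 92.6 in hippocampus at PWK 28 (0.59, SE 0.04, adjusted p = 2.32e-05, limma). *Grin3a* and *Grin3b*, NMDA receptor subunits that bind glycine, were higher in KI cortex at PWK 28 (*Grin3a* 2858 ± 685 against 1215 ± 71.7, adjusted p = 0.000781, limma). *Grin3b* was at a very low level there, with 10.4 ± 4.01 against 3.16 ± 1.96 (adjusted p = 0.0328, limma). Among 5 GABA and proline carriers of the same family, *Slc6a7* was higher in 3 of the 4 late comparisons, while *Slc6a13* and *Slc6a11* were lower in 2 and 3 of them. Astrocyte genes moved in the same libraries: of 6 astrocyte markers, 2 were higher and 1 lower in KI cortex at PWK 14, 1 and 2 at PWK 28, and 2 and 3 were higher in KI hippocampus, with *Gfap* higher by between 1.52 and 2.75 on the log2 scale. In KI hippocampus at PWK 14 the spread was wide. *Gfap* ran from 40059 to 131431 there, with a median of 46525, against 7502 to 9231 in WT. *Vim* ran from 1910 to 27342, with a median of 2624, against 1183 to 1437 in WT. *Slc1a3* went the other way in KI cortex, at 16345 ± 1035 against 20984 ± 1780 at PWK 14 (SD, n = 4). At PWK 28 it was 15465 ± 543 against 19989 ± 1156, and *Gja1* was 4297.5 ± 556 against 5261.5 ± 402. The part of the astrocyte genes in the carrier levels was not tested.

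**Figure D5:**
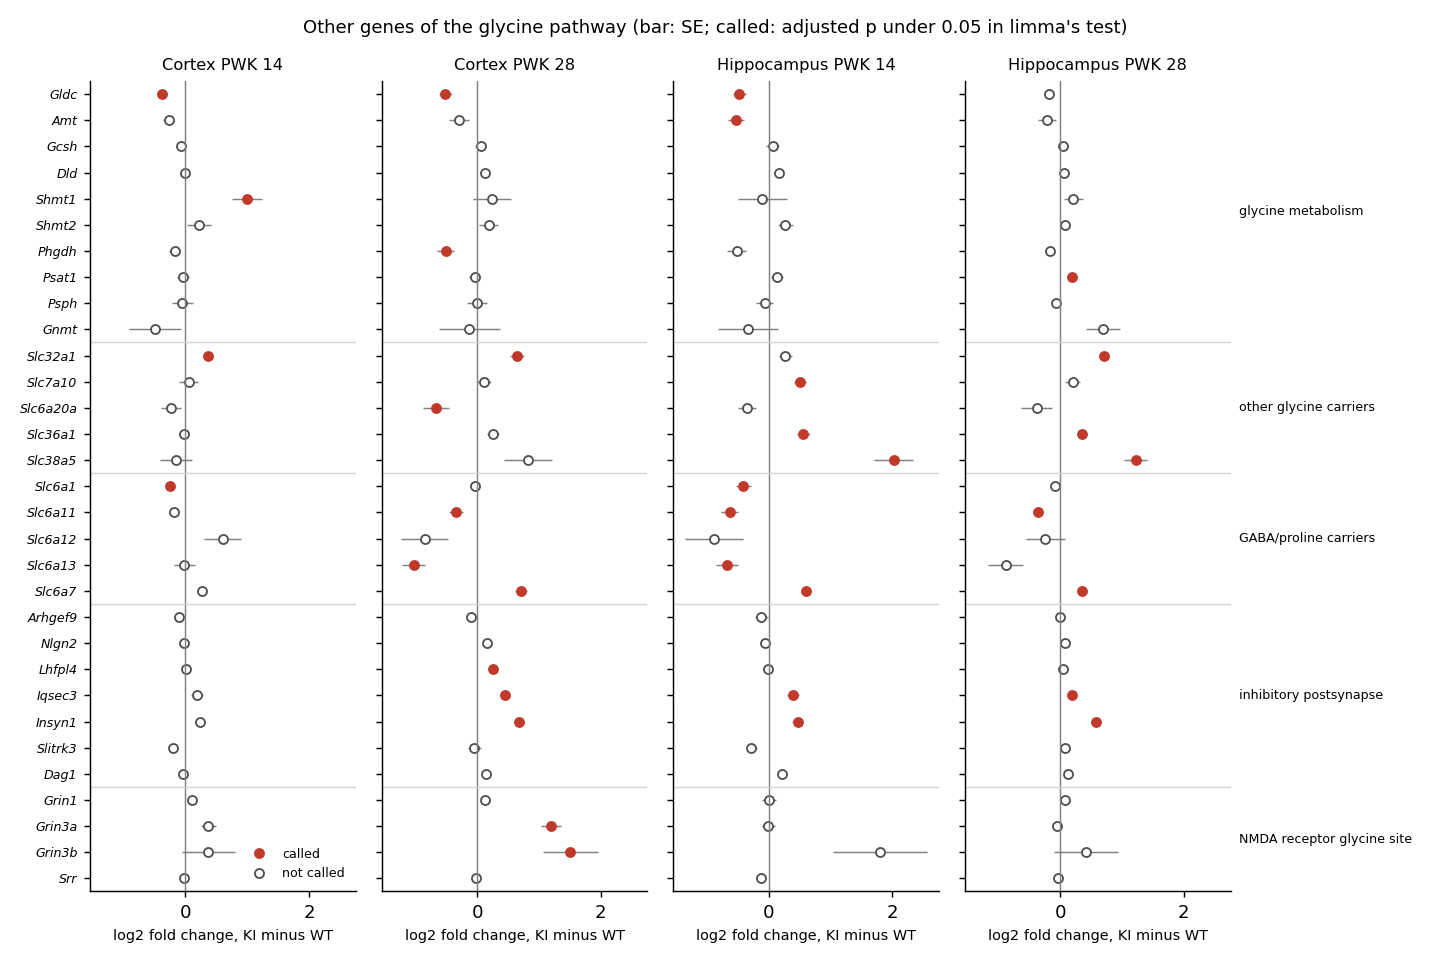
log2 fold change (KI minus WT, on log2(value + 1)) of 31 glycine pathway genes in the 4 late comparisons, grouped by role. Filled red points passed limma's test at an adjusted p under 0.05, open points did not, and bars are SE. *Slc38a5* in hippocampus at PWK 14 has the largest called difference, at 2.03.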

How the data were processed

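Normalized expression values of 64 libraries (stranded mRNA kit per the labels) were taken from the deposited table. The authors quantified reads on GRCm38 with Salmon, imported the estimates with tximport and normalized them with DESeq2 (Salmon 0.11.2, R 3.6.0 and DESeq2 1.19.11 per the submitters' processing notes). The deposited values are therefore a normalized signal and not whole counts. Their sums per library do not give the sequencing depth, and precision was judged from the spread of 4 libraries per group. No library was left out. Groups came from the sample labels. GENCODE vM21 matched 18420 of the 18432 gene IDs.

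Comparisons used limma 3.58.1 in R 4.3.3 (limma-trend) on log2(value + 1), without covariates, for genes with a mean of at least 1 in the libraries fitted, with Benjamini-Hochberg adjustment over all genes and calls at an adjusted p under 0.05. A count model had been planned had the table held counts. This scale understates changes of weakly expressed genes. The steps were tested on simulated data. Levels per kilobase used summed exon length. Exact permutation tests used SciPy 1.17.1. The members and lists were chosen with earlier results of these data known, so KI against WT at PWK 14 and 28 carries no p for the 7 genes. Genes other than these were named by a rule: up to 4 called pathway genes with the largest change per late comparison, the 3 genes most correlated with each member, and markers that moved with a member. The other pathway genes that are named (*Slc36a1*, *Slc7a10*, *Gldc*, *Iqsec3* and *Slc6a11* in comparisons beyond this rule) were chosen after their values were seen. Alternatives were other pseudocounts, filters and scaling, a replicate block, a fit of all libraries and leaving out each library. Of the lists, the *Glra4* entry gave no value. Same-numbered cortex and hippocampus libraries deviated together from their group means in some groups (correlations over 0.1 in 4 of 4 pairs in WT at PWK 1, mean 0.209, and in KI at PWK 28, mean 0.332) and not in others (0 of 4 in WT at PWK 7 and at PWK 28), with 17 of 32 pairs over 0.1 in all, and 10 of 32 for KI with WT. The blocked value therefore stands beside the region comparison at PWK 1, the pairing there coming from the data and not from the labels. Some genes that these rules and lists select are not reported here.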

Additional observations from a re-analysis of the deposited data

Results flagged for a closer look

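In 10 of 112 groups of 4 libraries (7 genes, 16 groups) a library stood far from the others of its group, where chance gives about 1 in 20. Most of these concern levels near 0. For *Slc6a5* they were replicate 3 of KI cortex at PWK 14 (42.3, with the others between 14.0 and 16.3), replicate 1 of KI hippocampus at PWK 1 (30.5, the others at most 7.77) and replicate 1 of WT hippocampus at PWK 7 (5.33). For *Glra1* they were replicate 4 of KI hippocampus at PWK 7 (1.78, with the others listed at 0), replicate 1 of WT cortex at PWK 1 (3.80) and replicate 3 of WT hippocampus at PWK 14 (3.71).

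For *Glra2*, replicate 3 of KI hippocampus at PWK 1 (1163) and replicate 1 of WT cortex at PWK 7 (360.2) lay below the others. *Glrb* in replicate 3 of WT hippocampus at PWK 7 (5216) and *Gphn* in replicate 2 of KI cortex at PWK 7 (2061) lay above them.

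The change of *Glrb* between PWK 1 and PWK 7 in WT mice differed between regions, by -0.22 on the log2 scale (hippocampus minus cortex, adjusted p = 0.0253 for the interaction, limma).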

How the results depend on the processing

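No difference of the 7 genes reversed a called direction under any alternative run, and changes of scale moved the median of all genes by at most 0.0965 on the log2 scale. A pseudocount of 5 lowered the described log2 fold changes in hippocampus to 7.65 (*Slc6a5*) and 4.78 (*Glra1*) at PWK 14 and to 6.79 and 3.79 at PWK 28, as a larger constant does by construction where one group is near 0. The count of called members in KI cortex at PWK 14 was 1 as reported, 2 with the pseudocount of 5, 2 with the replicate block and 3 with all 64 libraries in one fit, and the cause was not tested.

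Whether equal numbers mark one mouse is not in the labels, so the block was an alternative. With the replicate block, 5 members instead of 3 were called between WT regions at PWK 1 (*Slc6a9* and *Gphn* were added), and no other count than these 2 moved by over 1.5 times.

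Leaving out one library at a time gave between 1 and 2 called members in KI cortex at PWK 14 (2 without KI replicate 3), between 3 and 5 at PWK 28 (3 without KI replicate 1 or 3 or WT replicate 3 or 4), between 0 and 1 for PWK 28 against PWK 7 in WT cortex and in WT hippocampus, and between 0 and 1 for the difference of maturation between regions. The changes of the alpha subunit shares between PWK 1 and PWK 7 stayed between -21.8 and -18.6 points for *Glra2*, 17.8 and 20.4 for *Glra3* and 0.853 and 1.70 for *Glra1* in cortex, and between -12.6 and -10.3, 10.01 and 11.8, and 0.303 and 1.02 in hippocampus. With 3 libraries against 4 the exact test cannot go below an adjusted 0.0571, so these say nothing of stability. Low levels limit precision: of *Slc6a5* in WT mice and of *Glra1* in WT hippocampus only an upper range can be given. *Glra1* in WT cortex was also low, between 1.80 and 16.3 over 16 libraries.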
